A study of Mus musculus with 312 samples.

Results

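The oxytocin receptor gene and 9 genes of gap junctions, ion channels and calcium stores were followed in single basal cells of the mouse mammary gland. The set was a list of symbols, matched through the Entrez gene ID of each row, and it held 10 of the 27179 deposited gene IDs. The receptor is Oxtr. Gja1 and Gjb2 encode gap junction proteins. Scn7a, Cacna1c, Kcnma1 and Kcnmb1 encode channel subunits of the cell membrane, and Itpr1, Ryr3 and Atp2a2 encode calcium channels and a calcium pump of internal stores. All 10 genes were found, and 7 of them reached a mean of 50 CPM in at least 1 set of cells, the level required for the comparison with all genes.

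RNA was measured in 312 cells of FVB/NJ mice, captured singly on the Fluidigm C1 instrument and labelled as basal. The 237 adult cells carry 2 forms of title, 112 with the mark (2) and 125 without it, whose meaning the labels do not give. The remaining 75 cells carry the label pregnancy, with no day. No mouse received a treatment. In the study's methods, the pregnancy cells run on the C1 are total epithelium, and the basal sort of these 75 cells rests on their labels. Neither animals nor capture runs are named for single cells, so each title set was treated as 1 sample, no test was run, and no difference below has a replicate check. Pregnancy and its capture run cannot be told apart.

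After filters on depth, 81 adult (2) cells, 58 adult cells without (2) and 71 pregnancy cells were retained, with medians of 174910, 101321 and 230645 assigned reads per cell. Levels are given as CPM, the reads of a gene per 1000000 assigned reads of its cell. Markers of the basal layer bore out the label in most cells. At least 6 of 11 core basal genes reached 100 CPM in 76 adult (2) cells, 51 adult cells without (2) and 70 pregnancy cells. Among markers of other cell types, median summed levels of pan-luminal genes were 216, 197 and 198 CPM in adult (2), adult without (2) and pregnancy. Those of luminal progenitor genes were 1615, 1435 and 2148.5 CPM, and those of Schwann cell genes 53.9, 36.5 and 66.0 CPM. Mature luminal, immune, endothelial and pericyte genes had medians of at most 3.31 CPM. Fibroblast and milk protein genes and the mitochondrial share moved with the sets. Median summed levels of 8 fibroblast genes were 0, 28.8 and 561 CPM in adult (2), adult without (2) and pregnancy, those of 7 milk protein genes were 3.60, 0 and 124 CPM, and the median mitochondrial share of reads was 9.65%, 15.6% and 18.4%. Means of single fibroblast genes did not all follow that order. The log2 ratio of mean CPM, pregnancy over adult without (2), was -3.59 for Col1a2, -2.01 for Col3a1, -2.52 for Dpt and 0.71 for Dcn. Over adult (2) it was 0.20, 1.28, 0.33 and 3.27. Summed levels per cell ranged from 0 to 3262, 0 to 38417 and 55.2 to 5782 CPM for the fibroblast genes, of which Lum and Dpt were at 0 in every adult (2) cell, and at least 3 of these genes reached 100 CPM in 0, 3 and 3 cells. The milk protein genes ranged from 0 to 624, 0 to 8844 and 0 to 223037 CPM, with 0, 4 and 4 such cells, Lalba at 0 in adult (2) and Wap at 0 in adult without (2). Their part in the differences below was not tested.

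Basal cells of the mammary gland are also called myoepithelial cells, because they contain smooth muscle contractile proteins and surround the ducts and alveoli. During lactation, oxytocin from the pituitary binds its receptor on these cells. The receptor acts through Gq proteins and phospholipase C to release calcium from the endoplasmic reticulum, and the resulting contraction ejects milk. Gap junctions join the cytoplasm of neighbouring cells, and membrane channels set the voltage and let calcium in or potassium out.

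The 10 genes did not move as a group. In pregnancy cells 1 of 10 genes, Atp2a2, had a mean at least 2-fold higher than in both adult sets, against 8.81% of the 5197 genes tested. A mean at least 2-fold lower than in both adult sets was seen for 2 of 10 genes, Oxtr and Scn7a, against 5.95% of genes tested. Between the 2 adult sets, 1 of 10 genes, Kcnmb1, was at least 2-fold higher in cells without (2), against 17.5% of genes, and 0 of 10 were lower, against 16.4% of genes. The shares of all genes cover only genes that reached a mean of 50 CPM. Of the 7 genes of the set that did, 1 of 7 was higher and 2 of 7 were lower in pregnancy. The count of higher genes is close to the share in all genes, and the count of 2 lower genes lies above it, with the place of Oxtr in it resting on 1 cell as described below. The median log2 ratio of the 10 genes was -0.27 against adult (2) and -0.13 against adult without (2), and that of all genes tested was 0.05 and 0.03. Ratios throughout are log2 ratios of mean CPM with 10 CPM added to each mean, which understates changes of low genes.

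**Figure D1:**
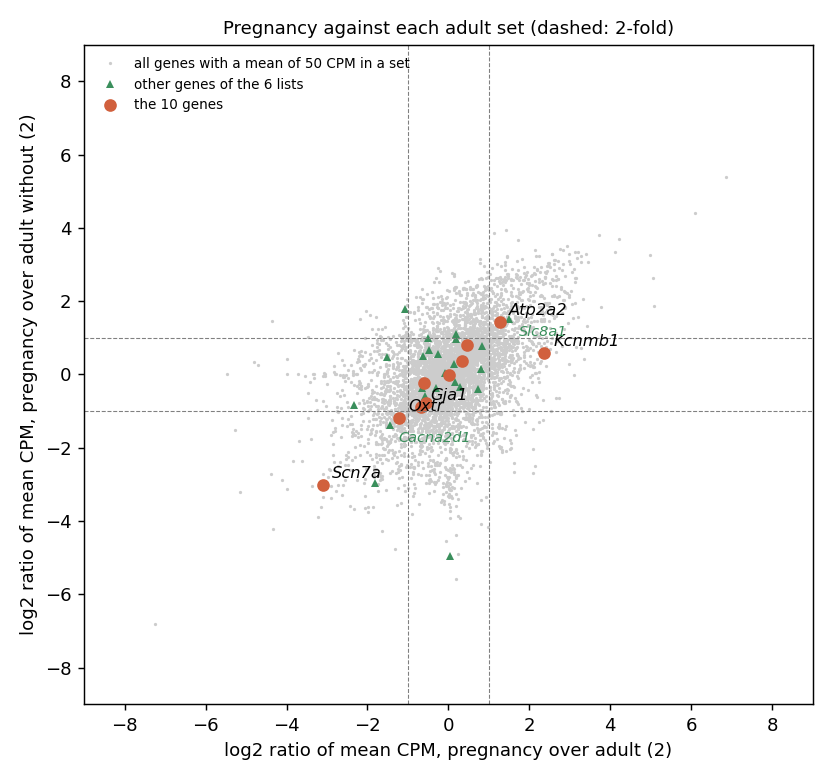
Pregnancy cells compared with adult (2) cells (horizontal, log2 ratio of mean CPM) and with adult cells without (2) (vertical, same unit) for the 10 genes, the other 23 tested genes of the pathway lists and all 5197 genes tested. Both axes share the pregnancy cells, so the diagonal spread of the grey points is not independent support. Scn7a lies at -3.10 and -3.03, Oxtr at -1.21 and -1.19, Atp2a2 at 1.28 and 1.43, and Kcnmb1 passes 2-fold only on the horizontal axis, at 2.37 and 0.59.

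Promoter windows are shown for the 2 genes that were lower in pregnancy and for Gja1, the gap junction gene, whose mean was lower in pregnancy but short of 2-fold. A RefSeq window of 250 bases before to 50 bases after a start site was found for 7 of 10 genes, on GRCm38.p6, and Itpr1, Atp2a2 and Ryr3 have none in the table. Printed are the bases before the start site that lie in no exon of the GENCODE vM21 annotation. They are chr6:112489944-112490075 on the minus strand for Oxtr, chr2:66784915-66785160 on the minus strand for Scn7a and chr10:56377050-56377299 on the plus strand for Gja1. The Oxtr stretch lies before the annotated GENCODE first exon but within the RefSeq span of the gene, which runs to base 112491035, and the other stretches lie before the start of both annotations. Capitals mark a match to the GC box (GGGCGG, either strand) or to the AP-1 site (TGANTCA, either strand).
Oxtr: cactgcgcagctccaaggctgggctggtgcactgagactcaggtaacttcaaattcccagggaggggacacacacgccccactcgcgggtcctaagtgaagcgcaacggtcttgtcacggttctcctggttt
Scn7a: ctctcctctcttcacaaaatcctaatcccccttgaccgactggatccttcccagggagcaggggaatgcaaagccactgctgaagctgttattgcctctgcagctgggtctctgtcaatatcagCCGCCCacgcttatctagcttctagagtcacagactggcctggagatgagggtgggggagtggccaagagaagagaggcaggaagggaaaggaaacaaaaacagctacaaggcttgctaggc
Gja1: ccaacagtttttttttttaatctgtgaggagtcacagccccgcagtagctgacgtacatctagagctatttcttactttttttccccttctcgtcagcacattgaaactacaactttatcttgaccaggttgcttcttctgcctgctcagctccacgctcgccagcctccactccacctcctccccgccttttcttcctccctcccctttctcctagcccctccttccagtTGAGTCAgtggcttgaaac
The Scn7a match is a GC box starting 126 bases before the start site, and the Gja1 match is an AP-1 site starting 19 bases before it. The Oxtr window holds a GC box 49 bases before its start site, inside an annotated exon and not printed. A GC box was found in 35.7% and an AP-1 site in 7.81% of all 32851 windows. The CArG box, the motif of serum response factor, was found in 0 of 9 windows of these 7 genes and in 1.63% of all windows. A match is a description of these letters only.

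Oxtr, the receptor itself (Entrez 18430, chromosome 6, minus strand), was read in most basal cells of every set, and its order between sets depended on the measure. In adult (2) cells it ranged from 0 to 5261 CPM with a median of 470 and a mean of 888 ± 1153 CPM (SD over 81 cells). In adult cells without (2) it ranged from 0 to 20219.9 CPM with a median of 51.0 and a mean of 873 ± 2755 CPM (SD over 58 cells). In pregnancy cells it ranged from 0 to 3769 CPM with a median of 133 and a mean of 377 ± 629 CPM (SD over 71 cells). The 3 ranges overlapped widely. The mean was lower in pregnancy than in both adult sets, at 2.32-fold and 2.28-fold, but the mean without (2) rested on 1 cell. Cell 163 held 39.9% of that sum, and without the highest cell of each set the log2 ratio of pregnancy over adult without (2) went from -1.19 to -0.68. The median in that set lay below the median in pregnancy. With the mean of log2 values in place of the log2 of means, that ratio was 0.62, and the ratio over adult (2) was -0.54.

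Shares of cells with Oxtr did not follow the means. It reached 100 CPM in 61.7% of adult (2) cells (exact 95% interval 50.3 to 72.3), 43.1% of adult cells without (2) (30.2 to 56.8) and 59.2% of pregnancy cells (46.8 to 70.7). After each cell was thinned to 50000 assigned reads, an Oxtr read remained in 75.3%, 65.5% and 87.3% of cells. At 500 CPM or more the order of adult without (2) and pregnancy changed, with 46.9%, 29.3% and 19.7% of cells in the 3 sets. Among cells at 100 CPM or more, the median level was 1167 CPM in adult (2), 1017 CPM in adult without (2) and 351 CPM in pregnancy. After thinning, Oxtr reads were thus found in the largest share of cells in pregnancy, and cells at 100 CPM or more held it at a lower level there. Thinned pregnancy cells also held more genes of any kind, with medians of 2301, 2203 and 3208 genes in the 3 sets. This applies to every thinned share below, and its part in them was not tested. All intervals cover counting error only, and PCR copies were counted as separate reads.

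**Figure D2:**
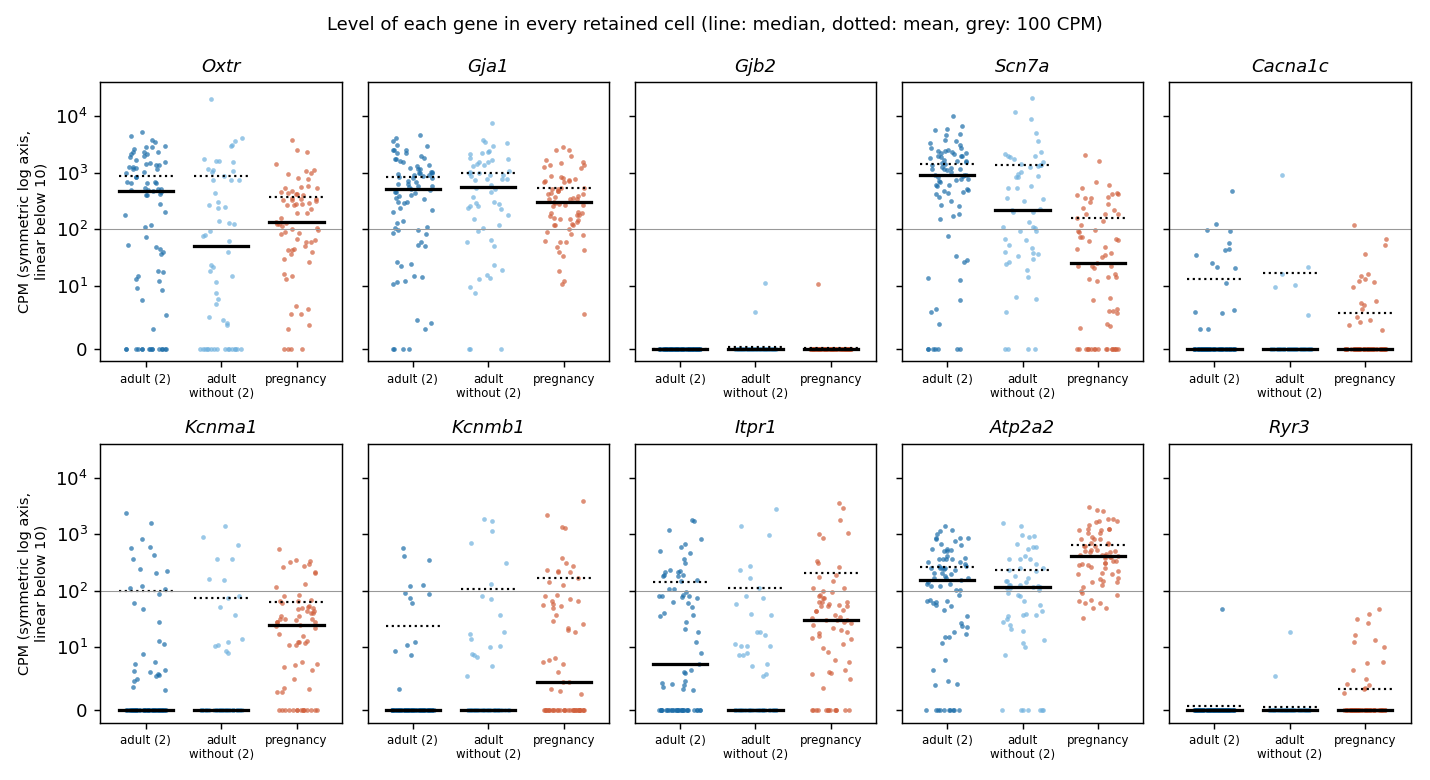
CPM of each of the 10 genes (panels, symmetric log axis that is linear below 10 CPM) in every retained cell, 81 adult (2), 58 adult without (2) and 71 pregnancy cells, with 1 point per cell, a solid line at the median, a dotted line at the mean and a grey line at 100 CPM. The median of Scn7a is 905 CPM in adult (2), 224 CPM in adult without (2) and 25.3 CPM in pregnancy, that of Atp2a2 is 155, 116 and 421 CPM, and the Oxtr mean without (2) is lifted by 1 cell at 20219.9 CPM.

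Gja1 encodes connexin 43, the gap junction protein known for coupling smooth muscle and myoepithelial cells, and had the highest level per length of the 10 genes in each set. On the RPKM scale (CPM per kilobase of exon) its mean was 277 in adult (2), 323 in adult without (2) and 173 in pregnancy. Its CPM ranged from 0 to 4764 with a median of 509 in adult (2), from 0 to 7638 with a median of 566 in adult without (2), and from 5.46 to 2858 with a median of 303 in pregnancy. Means were 859, 1004 and 537 CPM, and the log2 ratios of pregnancy over the adult sets were -0.67 and -0.89, short of 2-fold. The share of cells at 100 CPM was 72.8% (61.8 to 82.1), 75.9% (62.8 to 86.1) and 80.3% (69.1 to 88.8). The exact intervals of these shares overlapped. Medians among cells at 100 CPM were 876, 912 and 417 CPM, lowest in pregnancy.

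Gjb2, which encodes connexin 26, a gap junction protein of luminal epithelium, was at or near 0 in basal cells of all 3 sets. No cell reached 100 CPM, which allows shares of up to 3.70%, 5.17% and 4.23%. Its reads summed to 0 in adult (2), 4 in 2 cells of adult without (2) and 2 in pregnancy. The 2 pregnancy reads came from cell 71, which had 5 of 11 core basal genes and met the pan-luminal, luminal progenitor and milk protein lists. No fold is given for Gjb2.

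Scn7a (Entrez 20272, chromosome 2, minus strand) had the largest difference of the 10 genes. It encodes the Nax channel, a sodium channel that responds to extracellular sodium more than to voltage. In adult (2) cells it ranged from 0 to 10326 CPM with a median of 905 and a mean of 1451 ± 1776 CPM (SD over 81 cells). In adult cells without (2) it ranged from 0 to 20858 CPM with a median of 224 and a mean of 1378 ± 3304 CPM (SD over 58 cells). In pregnancy cells it ranged from 0 to 2048 CPM with a median of 25.3 and a mean of 160 ± 333 CPM (SD over 71 cells). Pregnancy cells were lowest by mean, median, highest cell and share of cells, though the ranges overlapped. The mean was 8.57-fold lower than in adult (2) and 8.15-fold lower than in adult without (2), and Scn7a ranked 9 of the 309 genes that were at least 2-fold lower against both sets.

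Scn7a reached 100 CPM in 79.0% of adult (2) cells (68.5 to 87.3), 62.1% of adult cells without (2) (48.4 to 74.5) and 31.0% of pregnancy cells (20.5 to 43.1). After thinning, a read remained in 87.7%, 87.9% and 57.7% of cells. Scn7a alone among the 10 genes had a smaller share of thinned cells with a read in pregnancy than in both adult sets. The median among cells at 100 CPM was 1269, 998 and 357 CPM, so both the share and the level were lower. In adult without (2), cell 187 held 26.1% of the sum, and the second highest cell, at 11713 CPM, had 79.5% mitochondrial reads and 5 of 11 core basal genes. Without the highest cell of each set the log2 ratios were -3.23 and -2.87, and without cells below 6 core basal genes they were -3.15 and -2.92. The difference was thus about as large without those cells.

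**Figure D3:**
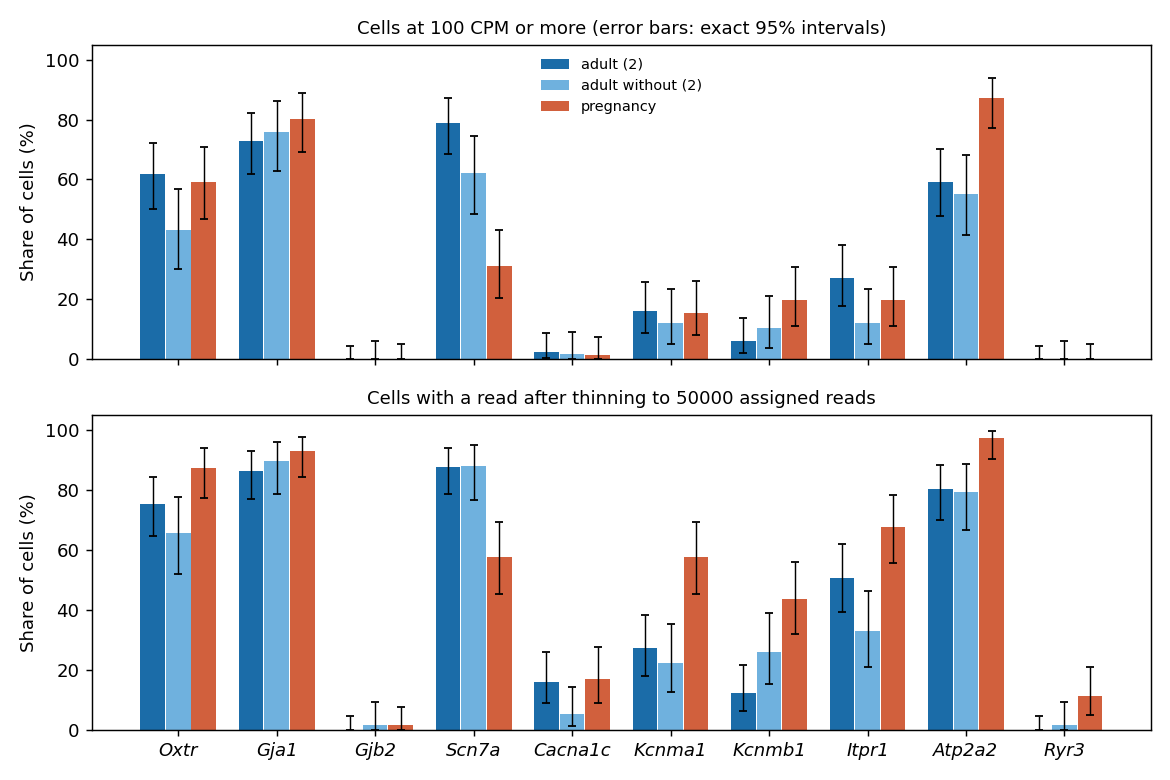
Share of retained cells (vertical axis, %) at 100 CPM or more (top) and with at least 1 read after thinning to 50000 assigned reads (bottom) for each of the 10 genes and each set, with exact 95% intervals as error bars. In the top panel Scn7a stands at 31.0% and Atp2a2 at 87.3% in pregnancy, and Oxtr in the bottom panel is read in 87.3% of pregnancy cells.

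Cacna1c, the pore subunit of the L-type calcium channel through which smooth muscle takes up calcium, was rarely detected. Its median was 0 in each set and its mean 13.2, 17.0 and 5.70 CPM in adult (2), adult without (2) and pregnancy. It reached 100 CPM in 2, 1 and 1 cells. In adult without (2), cell 177 at 925 CPM held 93.6% of the sum, so no difference is read from these means. Cacna1c overlaps Dcp1b on the genome, whose reads were found in 0 of the cells with Cacna1c at 100 CPM.

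Kcnma1 and Kcnmb1 encode the pore and the smooth muscle beta subunit of the large-conductance calcium-activated potassium (BK) channel, which opens as calcium rises. Kcnma1 was at 0 in the median adult cell and ranged up to 2389 CPM in adult (2), 1420 CPM in adult without (2) and 544 CPM in pregnancy, where the median was 24.6 CPM. Its means were 100, 74.8 and 62.2 CPM. The share of cells at 100 CPM was alike, 16.0%, 12.1% and 15.5%, but after thinning a read remained in 27.2% (17.9 to 38.2), 22.4% (12.5 to 35.3) and 57.7% (45.4 to 69.4) of cells. Pregnancy cells, which held more genes of any kind after thinning, thus also held Kcnma1 more often. They had the higher median but the lowest mean. The order of the means of adult without (2) and pregnancy rested on single cells, since without the highest cell of each set they were 71.5, 51.2 and 55.3 CPM. With the mean of log2 values in place of the log2 of means, the ratios of pregnancy over the adult sets changed sign from -0.61 and -0.23 to 0.75 and 0.89.

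Kcnmb1 was higher in pregnancy than in adult (2), with means of 166 and 24.0 CPM and a log2 ratio of 2.37, and lay between them in adult without (2), at 107 CPM. The median was 0 in both adult sets and 4.41 CPM in pregnancy, and the highest cells stood at 573, 1843 and 3809 CPM. It reached 100 CPM in 6.17% (2.03 to 13.8), 10.3% (3.89 to 21.2) and 19.7% (11.2 to 30.9) of cells, and a read remained after thinning in 12.3%, 25.9% and 43.7%. The order of pregnancy and adult without (2) depended on the cells used, since their log2 ratio was -0.22 among cells with at least 100000 reads and 1500 genes and 3.50 against the cells without (2) with title numbers above 175 alone, a choice made after seeing the data. The 2 adult sets differed by a log2 ratio of 1.78, larger than the 0.59 of pregnancy over adult without (2). The 6 cells without (2) at 100 CPM all had title numbers of 175 or less. Kcnmb1 lies within the span of Kcnip1, whose reads were found in 0 of the 5, 6 and 14 cells with Kcnmb1 at 100 CPM. Both BK subunits at 100 CPM were found in 3, 1 and 1 cells.

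The remaining 3 genes act at the calcium store. Itpr1 encodes the inositol trisphosphate receptor that releases store calcium after Gq signalling. Its medians were 7.36, 0 and 30.2 CPM in adult (2), adult without (2) and pregnancy, its means 143, 111 and 202 CPM, and its highest cells 1788, 2843 and 3534 CPM. The mean without (2) rested on cell 156, which held 44.1% of the sum and had 5 of 11 core basal genes. The log2 ratios of pregnancy over the adult sets were 0.47 and 0.81, and without cells over 50% mitochondrial reads they were 0.00 and 0.32. Among cells with at least 100000 reads and 1500 genes they were 0.92 and 3.18, and over all alternatives the ratio over adult without (2) ran from 0.29 to 3.28. Itpr1 was at 100 CPM in 27.2%, 12.1% and 19.7% of cells, and read after thinning in 50.6% (39.3 to 61.9), 32.8% (21.0 to 46.3) and 67.6% (55.5 to 78.2). The shares did not order the sets in the same way.

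Ryr3, a ryanodine receptor that also releases store calcium, was close to absent. It reached 100 CPM in 0 cells, with 8 reads in 1 adult (2) cell, 2 reads in 2 adult cells without (2) and 45 reads in 17 pregnancy cells. After thinning a read remained in 0%, 1.72% and 11.3% (4.99 to 21.0) of cells, with mean levels of 0.594, 0.416 and 3.40 CPM. The adult levels are too low for a fold.

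Atp2a2 encodes SERCA2, the pump that returns calcium to the store, and was the 1 gene of the 10 that was at least 2-fold higher in pregnancy against both adult sets. It ranged from 0 to 1396 CPM with a median of 155 and a mean of 262 ± 316 CPM in adult (2) (SD over 81 cells). It ranged from 0 to 1572 CPM with a median of 116 and a mean of 233 ± 338 CPM in adult without (2) (SD over 58 cells). It ranged from 32.7 to 2978 CPM with a median of 421 and a mean of 648 ± 657 CPM in pregnancy (SD over 71 cells). All pregnancy cells held Atp2a2 reads, against 71 of 81 and 51 of 58 adult cells, and the ranges overlapped. The log2 ratios were 1.28 and 1.43, ranking 313 of the 458 genes that were at least 2-fold higher, and 1.28 and 1.51 without the highest cell of each set.

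Atp2a2 reached 100 CPM in 59.3% (47.8 to 70.1), 55.2% (41.5 to 68.3) and 87.3% (77.3 to 94.0) of cells, and was read after thinning in 80.2%, 79.3% and 97.2%. Mean, median and both shares therefore went in the same direction. The ratio against adult (2) lay close to the 2-fold limit. It was 0.98 when reads of mitochondrial, ribosomal and unnamed genes were kept in the total, and 0.92 from reads summed over each set.

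Mean levels per length placed the genes in a similar order in both adult sets. Mean RPKM was 277 for Gja1, 198 for Scn7a and 194 for Oxtr in adult (2), and 323, 188 and 191 in adult without (2). The means of Scn7a and Oxtr lay close together in both adult sets, and their difference was not tested. Atp2a2 followed at 45.7 and 40.8 RPKM, and no other gene exceeded 25.4 RPKM. In pregnancy the order was Gja1 at 173 RPKM, Atp2a2 at 113, Oxtr at 82.5, Kcnmb1 at 39.6, Scn7a at 21.9 and Itpr1 at 20.5. By mean, Scn7a thus moved from among the leading 3 genes to the level of Itpr1. Medians gave another order. In adult without (2), median RPKM was 182 for Gja1, 30.6 for Scn7a, 20.2 for Atp2a2 and 11.2 for Oxtr. In adult (2) these medians were 164, 123, 27.0 and 103. In pregnancy, medians were 97.6 for Gja1, 73.5 for Atp2a2, 29.0 for Oxtr, 3.45 for Scn7a, 3.05 for Itpr1 and 1.05 for Kcnmb1. Cell 28 held 32.4% of the Kcnmb1 sum in pregnancy.

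The genes were then counted together in each cell. The median cell held 3 of the 10 genes at 100 CPM in each set, with a highest count of 7 in adult (2) and 5 in the other sets. Oxtr and Gja1, the receptor and the gap junction, were both at 100 CPM in 46.9% (35.7 to 58.3), 34.5% (22.5 to 48.1) and 52.1% (39.9 to 64.1) of adult (2), adult without (2) and pregnancy cells. Adding Scn7a lowered these shares to 40.7% (29.9 to 52.2), 29.3% (18.1 to 42.7) and 12.7% (5.96 to 22.7). Oxtr and Atp2a2 were both found in 42.0% (31.1 to 53.5), 25.9% (15.3 to 39.0) and 53.5% (41.3 to 65.5) of cells.

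Among cells with Oxtr at 100 CPM, Scn7a was also present in 43 of 50 adult (2) cells, 22 of 25 adult cells without (2) and 10 of 42 pregnancy cells. Among cells without Oxtr it was present in 21 of 31, 14 of 33 and 12 of 29 cells. The share of cells with Scn7a was higher beside Oxtr in the adult sets, 86.0% against 67.7% and 88.0% against 42.4%, and lower in pregnancy, 23.8% against 41.4%, and the exact intervals overlapped except in adult without (2). Rank correlations of their CPM over cells were 0.19, 0.37 and -0.13. All points of a set share capture and depth range, and weak correlations in sparse counts are no finding.

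**Figure D4:**
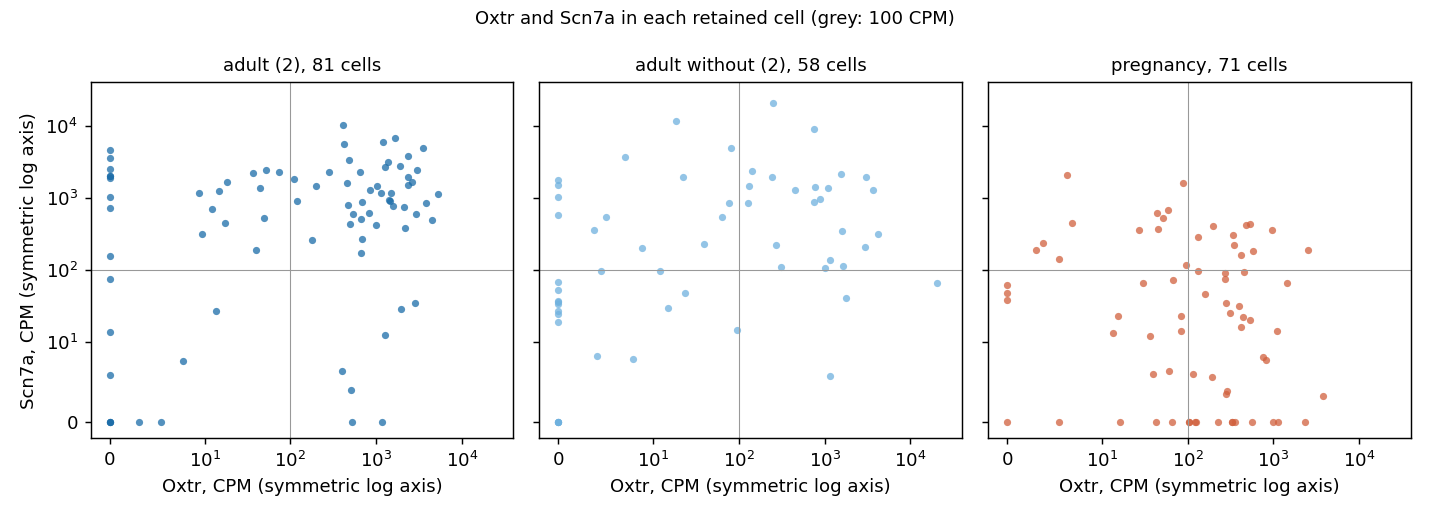
CPM of Oxtr (horizontal) and Scn7a (vertical) in each retained cell, 1 panel per set, both on symmetric log axes, with grey lines at 100 CPM. The area above both lines holds 43 of 81 adult (2) cells, 22 of 58 adult cells without (2) and 10 of 71 pregnancy cells.

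Adult cells without (2) were not uniform along their title numbers, 113 to 237. Split at the middle of these numbers, a division added after the values had been seen, Oxtr reached 100 CPM in 10 of 38 cells with lower numbers (26.3%, 13.4 to 43.1) and 15 of 20 with higher numbers (75.0%, 50.9 to 91.3). Scn7a did so in 16 of 38 (42.1%, 26.3 to 59.2) and 20 of 20 (100%, 83.2 to 100). Gja1 and Atp2a2 were alike in both, at 78.9% and 70.0% and at 52.6% and 60.0%. In adult (2) cells, the same split gave 64.1% and 59.5% for Oxtr and 74.4% and 83.3% for Scn7a. In pregnancy cells it gave 66.7% and 51.4% for Oxtr, 30.6% and 31.4% for Scn7a, and 91.7% and 68.6% for Gja1. Pregnancy means were 698 and 372 CPM for Gja1 and 816 and 475 CPM for Atp2a2, lower in the higher numbers. Kcnma1 reached 100 CPM in 5.56% and 25.7% of pregnancy cells. Whether the pregnancy ratios hold in each part of these cells was not tested. Median depth was 111981 reads in the lower and 75184 in the higher numbers of adult cells without (2), and what the numbers stand for is not stated. All 15 higher-numbered cells with Oxtr and all 5 without it held Scn7a, and 7 of 10 and 9 of 28 lower-numbered cells did. The share with Scn7a was thus higher beside Oxtr among the lower numbers. Among the higher numbers no contrast can be seen, since every cell held Scn7a. The part of the numbers in the co-detection of this set was not tested.

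**Figure D5:**
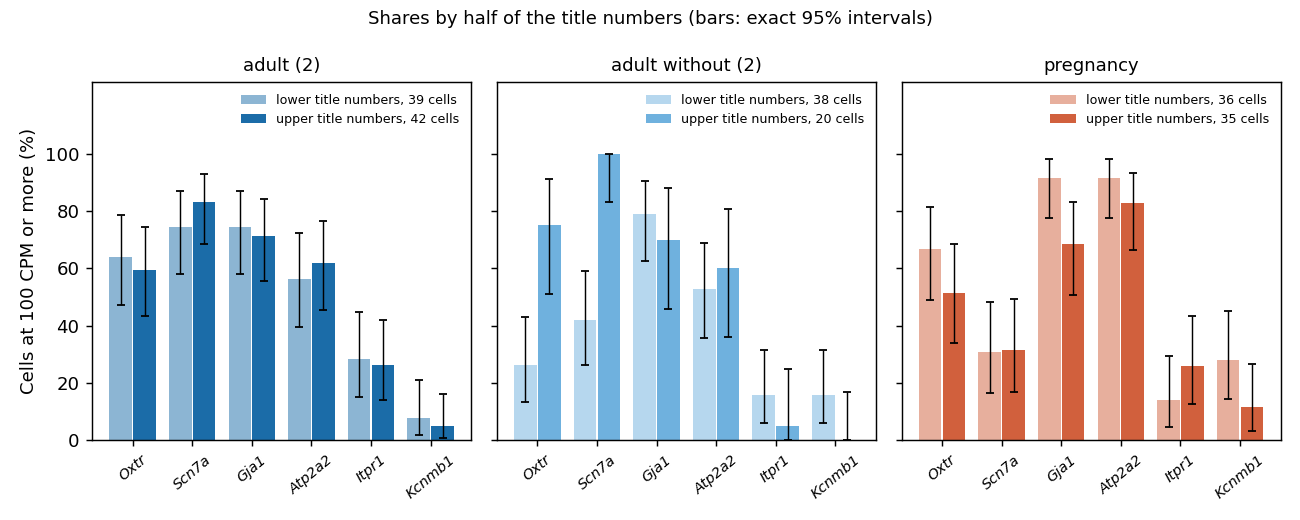
Share of cells at 100 CPM or more (vertical axis, %) for 6 of the genes in cells with lower (pale) and higher (dark) title numbers of each set, with exact 95% intervals. Oxtr and Scn7a differ between lower and higher numbers in adult cells without (2), at 26.3% and 75.0% and at 42.1% and 100%. Gja1 stands at 91.7% and 68.6% in pregnancy, with intervals that overlap.

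The rest of the pathway was examined through 6 lists with 113 other genes, of which 23 reached a mean of 50 CPM. In pregnancy 1 of 23 was at least 2-fold higher than both adult sets and 2 of 23 were lower, against the 8.81% and 5.95% of all genes. Slc8a1, the plasma membrane sodium-calcium exchanger, was the higher one by mean, at 28.2, 28.4 and 99.1 CPM. Only its pregnancy mean reached 50 CPM. Its medians were 0, 0 and 2.89 CPM, and a read remained after thinning in 23.5%, 13.8% and 33.8% of cells. Cell 229 held 78.0% of its sum in adult without (2), and cell 74 held 34.5% in pregnancy. Cacna2d1, the alpha-2/delta subunit of voltage-gated calcium channels, was among the lower ones by mean, at 228, 218 and 77.1 CPM. Its medians were 37.6, 14.4 and 24.8 CPM, so the median in pregnancy lay above that in adult without (2). After thinning, a Cacna2d1 read remained in 56.8%, 55.2% and 63.4% of cells.

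None of the 11 tested genes of oxytocin signalling downstream of the receptor passed 2-fold against both adult sets. Gnaq, the Gq alpha subunit, had means of 240, 316 and 271 CPM. Among the tested connexins, Gja4 had 4.04, 436 and 4.42 CPM, a mean without (2) that rested on cell 169 at 25200.1 CPM, which held 2 of 11 core basal genes. Scn8a was the 1 other sodium channel tested, at 73.8, 1.53 and 29.5 CPM. The pump Atp2b1, which exports calcium across the plasma membrane, was higher in pregnancy at 252, 263 and 456 CPM but short of 2-fold, with log2 ratios of 0.83 and 0.77. Between the adult sets, 3 of the 23 genes were at least 2-fold higher and 6 lower in cells without (2), against the 17.5% and 16.4% of all genes.

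Genes whose CPM followed that of a member across cells were ranked by the smallest of the rank correlations in the 3 sets, for the 6 genes that could be compared with 3675 others. Oxtr was closest to Krt5, a basal keratin, with correlations of 0.31, 0.33 and 0.32 over 81, 58 and 71 cells. Scn7a was closest to Eln, which encodes elastin, with 0.33, 0.43 and 0.37. Gja1 was closest to Ptp4a2, with 0.33, 0.27 and 0.27. These values are weak, come from the cells of 1 sample per set and are given as a description only.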

How the data were processed

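Single cells were captured on the Fluidigm C1 and their cDNA sequenced as read pairs. The authors deposited raw counts, in which each cell has a whole number of read pairs for every Entrez gene. Per the labels, they come from Subread 1.5.0 and featureCounts on mm10. The counts hold no molecular identifiers, and use of strand in counting is not given in the sources used here. Exon lengths were deposited with them and served only for RPKM.

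Mitochondrial genes, Rpl and Rps genes and IDs without a RefSeq symbol were left out. Cells with at least 50000 remaining reads and 1000 genes were kept (210 of 312), and CPM was computed from those reads. No doublet caller was run. Each title set was 1 sample, so ratios have no p-value. Intervals are exact Clopper-Pearson (95%), and the limit for a share of 0 is that of 3 cells. The comparison with all genes used those whose mean reached 50 CPM in any set. All 10 genes were named, and pathway genes past 2-fold against both adult sets, with others of the lists named after their values were seen. The rule for called genes was tested on simulated data, with changes larger than those of Oxtr and Atp2a2 and no differences between capture runs. That test therefore does not cover the calls of these genes. Genes and lists were chosen with earlier results of these data known. Python 3.11.15, numpy 2.4.6 and scipy 1.17.1 were used. Some genes of the pathway lists are counted but not reported here by name.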

Additional observations from a re-analysis of the deposited data

Results flagged for a closer look

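Reads of the 10 genes were also present in the cells left out for low depth, which no comparison used. They made up 0.509% of assigned reads in the 31 adult (2) cells left out, 0.425% in the 67 adult cells without (2) and 0.172% in the 4 pregnancy cells, and 0.364%, 0.338% and 0.212% in the retained cells. Scn7a held 1107 of 2304 of these reads in adult (2), 1730 of 3057 in adult without (2) and 3 of 161 in pregnancy, and Kcnma1 held 616 in adult (2). Why the shares differ was not tested.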

How the results depend on the processing

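Scn7a was at least 2-fold lower in pregnancy against both adult sets under all 13 alternatives, with log2 ratios between -3.27 and -2.57 against adult (2) and between -3.72 and -2.30 against adult without (2). The count of 2 lower genes became 1 without the highest cell of each set and 1 with the mean of log2 values, where Oxtr dropped out and its ratio over adult without (2) reversed to 0.62, and 3 with a pseudocount of 1 CPM, which adds Cacna1c. That mean of logs also moved the median of all genes to 0.27 and 0.37. The count of 1 higher gene became 0 with CPM of reads in all genes and 0 with summed reads, where Atp2a2 fell short against adult (2), and 2 with a pseudocount of 1 CPM, which adds Ryr3. The 1 gene that differed between adult sets became 2 at 100000 reads and 1500 genes, which retained 71, 29 and 69 cells, and 0 with a pseudocount of 100 CPM.

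The 2 alternatives that use some of the adult cells without (2) by title number were chosen after seeing the data. With the lower-numbered adult cells without (2) alone, 2 genes differed between adult sets. With the higher-numbered cells alone, 3 did, Kcnmb1 reversed to -1.13 between adult sets, and 2 genes, Kcnmb1 and Atp2a2, were higher in pregnancy. Over the 10 genes and 3 comparisons, 221 of the alternative log2 ratios stayed within counting error of the reported ratio, 167 moved beyond it and 2 reversed. The sign changed in 2 of 104 alternatives to ratios past 2-fold, both given above, and in 32 of 286 alternatives to ratios within 2-fold. Against both adult sets, Gja1, Itpr1, Atp2a2 and Ryr3 kept their sign under all 13 alternatives, and Kcnma1 under 12 and 10 of them. The lowest ratios over adult (2) were 0.00 for Itpr1 and 0.04 for Ryr3, so a kept sign gives no clear direction for these genes. With no filter on low values, 4.91% of genes were higher and 2.35% lower in pregnancy by the same rule. Depth limits most the genes near 0: Gjb2, Ryr3 and Cacna1c.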
